A study of Mus musculus with 4 samples.

Results

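The genes of the Wnt pathway were examined in EPH-4 cells, a non-malignant mouse mammary epithelial line, in a pair of stable derivatives. EV-50 carries an empty hairpin vector, and shGR-19 carries a vector for a short hairpin RNA against the glucocorticoid receptor (GR, encoded by Nr3c1), so that the comparison asks which Wnt components differ when the receptor is depleted. Both lines also carry a puromycin resistance marker and were grown without serum in 2 µg/ml puromycin. The study kept them without glucocorticoids, so that the comparison concerns the receptor without its hormone. Each line was expanded from a selected colony, so that a difference between the lines and a difference between 2 clones cannot be told apart. The members were all non-control probes named for a Wnt ligand, a Frizzled (Fzd) receptor, an Sfrp or Dkk antagonist, Wif1, Lrp5, Lrp6, Axin1, Axin2, Ctnnb1, Apc, Nkd1, Lef1 or a Tcf7 family gene. They came to 77 probes of 49 genes, out of 41174 probes with 28146 gene names on the Agilent whole mouse genome array.

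Each line was hybridised to 2 arrays, with 300 ng RNA labelled with Cy3 for each. The labels do not say that the duplicates came from separate cultures, so every p-value measures only the spread between these arrays, which may be technical. Of the 77 probes, 44 probes of 27 genes stood well above background on each array of one line or the other, and were tested. The remaining 22 genes are accounted for below by role.

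Both the scanner output of each array and a normalised log2 table of the same samples were used, because they did not give the same picture. In the scanner output, the array labelled EV-50 replicate 1 and the array labelled shGR-19 replicate 1 differed by an SD of only 0.0806 on the log2 scale over the 10586 probes that were brighter than the median among those well above background on all arrays. The 2 arrays labelled EV-50 differed by an SD of 0.518 over the same probes, and those labelled shGR-19 by 0.624. In the value table the duplicates of EV-50 differed by an SD of 0.0965 and those of shGR-19 by 0.0859. The scanner arrays labelled replicate 1 thus stood as close to each other as duplicates of 1 line, although they are labelled as different lines, so scanner values are given by label, with replicate 1 first.

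For the targeted gene the sources differed in the same way. The table held, for the brightest Nr3c1 probe, 0.98 and 0.95 for EV-50 and -0.95 and -0.98 for shGR-19, a difference of -1.94 (SE 0.0479, limma adjusted p = 0.00216). On the scanner arrays, log2 signal relative to the array's 75th percentile was 1.74 and 1.85 for the arrays labelled EV-50 replicates 1 and 2, 1.39 for that labelled shGR-19 replicate 1 and -0.11 for that labelled shGR-19 replicate 2. The difference in Nr3c1 was -1.96 in the pair labelled replicate 2 and -0.35 in the pair labelled replicate 1. Each called Wnt probe is accordingly given below from the table, from all 4 scanner arrays, and from those labelled replicate 2 alone. The last has 1 array a line, which allows no test. Some uncalled probes are given from the table alone.

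Wnt proteins are secreted, lipid-modified ligands that bind Frizzled receptors together with the co-receptors Lrp5 and Lrp6. In the canonical branch this holds back a cytoplasmic complex built on Axin and Apc that marks β-catenin (Ctnnb1) for degradation, and the stabilised β-catenin acts in the nucleus with the DNA-binding proteins of the Tcf and Lef family. Secreted Frizzled-related proteins (Sfrp), Dickkopf proteins (Dkk) and Wif1 antagonise the ligands or their receptors outside the cell. In the mammary gland the pathway is known for its part in ductal branching and in the maintenance of basal stem cells, and Wnt1 is a classical mammary oncogene of the mouse.

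For the 4 genes below, the array carries a pair of tested probes that did not give the same call, so the call depends on which probe is read. Why the calls differed was not tested. The first bases of each 60-base probe are shown, 5′ to 3′, with the called probe first, since the values of these genes are values of these sequences. Positions are in mm9, as annotated for the array.
Sfrp1, called probe, chr8:24558112-24558171, plus strand: cggaatcagtatagcgtggaaggagacagt
Sfrp1, second probe, chr8:24558800-24558859, plus strand: gtgcattagtaattagaaatagtctaacct
Wnt5a, called probe, chr14:29340427-29340486, plus strand: aaatgccttgttaacgaacttcatgaagca
Wnt5a, second probe, chr14:29331746-29335708, plus strand: caatgaagcaggccgtaggacagtatacaa
Wnt9a, called probe, chr11:59146696-59146755, plus strand: aaacgtctgccggctggtttgtttctgtat
Wnt9a, second probe, chr11:59144511-59144570, plus strand: acacaaatatgagacctcgctcaaggtggg
Fzd7, called probe, chr1:59541367-59541426, plus strand: agccccgactttacagtcttcatgatcaag
Fzd7, second probe, chr1:59543192-59543251, plus strand: aagggaaggtgaacttcaaagtgattctgg
The second Wnt5a probe covers more genomic bases than it is long, so it crosses an exon junction, whereas each of the other 7 lies in 1 unbroken stretch.

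In the value table, 7 of the 44 tested Wnt probes (15.9%) differed between the lines at an adjusted p below 0.01, each of a different gene. Wnt5a, Wnt9a, Fzd2, Fzd4 and Sfrp1 were higher in shGR-19, and Fzd7 and Apc were lower. Over all 24440 probes tested, 11.6% were called, so the share of the members was near that of the array as a whole. Higher calls made up 11.4% of the members and 5.52% of all probes, and lower calls 4.55% of the members and 6.04% of all probes. Only Sfrp1 among the members also passed a 2-fold limit, 1 of 44, against 4.26% of all probes. The values of the lines did not overlap for 34 of the 44 member probes (77.3%), and for 71.9% of all probes.

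The median difference of the members was -0.08 on the log2 scale, beside 0.01 over all probes. Centring each column of the table on its median moved the median of all probes to 0.13 and that of the members to 0.04, and turned the split of all calls over 2-fold from 457 higher and 585 lower to 597 higher and 496 lower. With columns centred and no limit on the fold, 6 members were called higher and 2 lower. Over all 24440 probes, 2348 were then called higher and 1172 lower, beside 1349 and 1476 without centring. Among the members 4 uncalled probes, 1 each of Apc, Fzd1, Wnt1 and Wnt5a, changed from below to above 0.

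In the scanner files no probe of the array was called (0%), and no member. The smallest adjusted p over all probes was 0.957 by limma. At an unadjusted p below 0.05 there were 207 probes, 2 of them members, Fzd4 and Fzd3. The table calls were lost, for every probe of the array, when any 1 column was left out, with adjusted p of 0.037 to 0.0648 for the 7 members. None of the 7 was called with all probes of the array kept either.

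**Figure D1:**
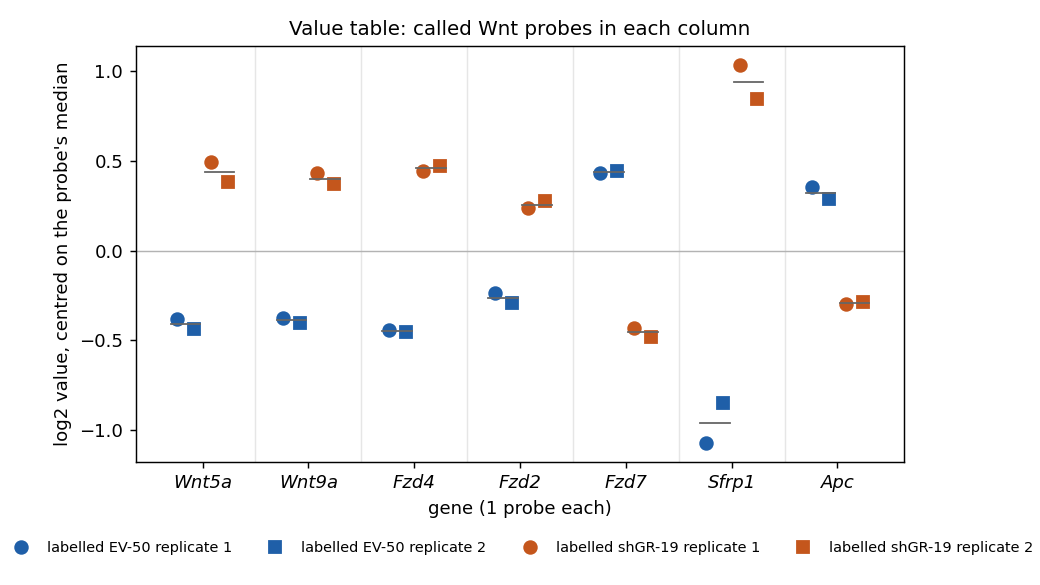
Log2 values of the 7 called Wnt probes in the 4 columns of the value table, each probe centred on its median, with blue symbols for EV-50, orange for shGR-19, circles for replicate 1, squares for replicate 2 and a short line at each mean. The duplicates of each line lie close together, and Sfrp1 shows the widest gap between the lines, from -0.96 on average in EV-50 to 0.94 in shGR-19.

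**Figure D2:**
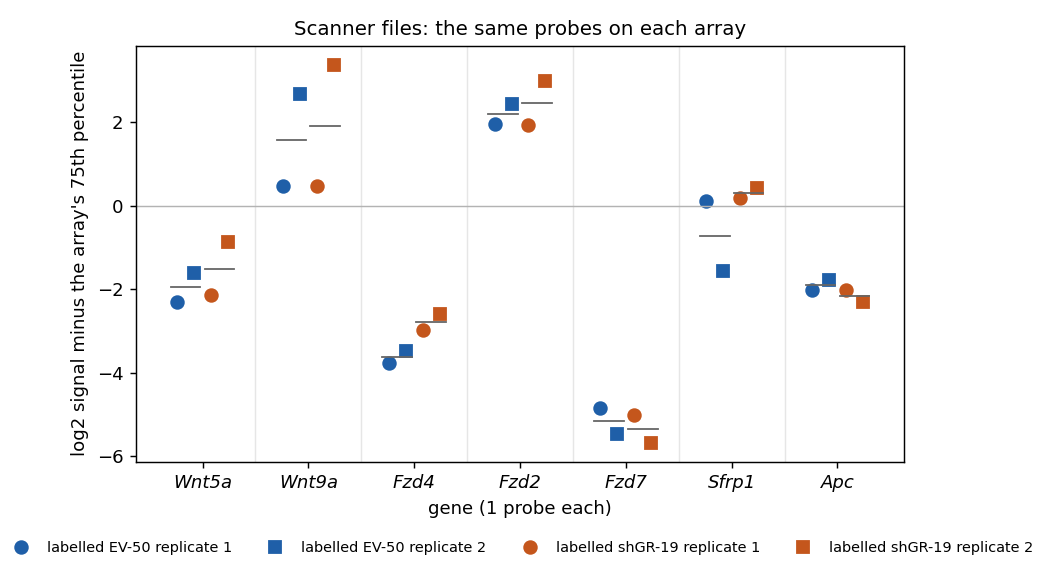
Log2 signal of the same 7 probes on the 4 scanner arrays, relative to each array's 75th percentile, with the same symbols and with a short line at the mean of each label. For Wnt9a, Fzd2 and Sfrp1 the circles of both lines coincide while the squares differ, and for Fzd4 both symbols of shGR-19 lie above both of EV-50.

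Of the 19 Wnt ligand genes on the array, 11 were tested, and 2 of their 14 probes were called, both higher in shGR-19. The other 8 genes, Wnt2, Wnt2b, Wnt3, Wnt3a, Wnt4, Wnt8a, Wnt10b and Wnt16, were well above background on no array. Wnt4 and Wnt10b are ligands known from the mammary gland in vivo.

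Wnt5a, a ligand best known for signalling without β-catenin, was higher in shGR-19 by one of its probes. In the table the called probe held -0.38 and -0.44 in EV-50 and 0.49 and 0.38 in shGR-19, a difference of 0.85 (SE 0.0643, adjusted p = 0.00629, limma), which is 1.80-fold. In the scanner files it read -2.30 and -1.61 under the EV-50 label and -2.15 and -0.87 under the shGR-19 label. The arrays labelled replicate 2 thus stood above those labelled replicate 1 in both lines, and the ranges of the lines overlapped. The difference was 0.44 over all 4 scanner arrays (SE 0.533, adjusted p = 1.0) and 0.74 in the pair labelled replicate 2.

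The Wnt5a probe across the exon junction did not share this in the table, where the difference was -0.03 (SE 0.184, adjusted p = 0.912). Its scanner values were -3.52 and -3.05 under the EV-50 label and -2.97 and -2.43 under the shGR-19 label. Here the lines did not overlap, and the sources were at odds, since the scanner difference was 0.58 (SE 0.316, adjusted p = 1.0). In the pairs it was 0.54 for replicate 1 and 0.63 for replicate 2.

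Wnt9a, a ligand known from joint and limb development, was higher in shGR-19 in the table. The called probe held -0.37 and -0.40 in EV-50 and 0.43 and 0.37 in shGR-19, a difference of 0.79 (SE 0.0513, adjusted p = 0.00509, limma), or 1.73-fold. Its second probe differed by 0.51 in the same direction and fell just outside the threshold (SE 0.0561, adjusted p = 0.0112).

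On the scanner arrays Wnt9a was set apart by replicate label more than by line. The called probe read 0.48 and 2.68 under the EV-50 label and 0.46 and 3.37 under the shGR-19 label. Both arrays labelled replicate 2 were far above both labelled replicate 1, by 2.55 on average. The second probe gave a like gap of 2.45 between the replicate labels. The line difference of the called probe was 0.34 over 4 arrays (SE 1.25, adjusted p = 1.0), -0.02 in the pair labelled replicate 1 and 0.69 in the pair labelled replicate 2.

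The remaining ligand probes were not called. Wnt10a and Wnt7b are ligands of skin appendages and of several branching epithelia. Wnt10a held -0.04 and -0.03 in EV-50 and 0.03 and 0.10 in shGR-19 in the table (difference 0.10, SE 0.0527, adjusted p = 0.225). Its scanner signal was 4.61 and 5.61 under the EV-50 label and 4.60 and 5.52 under the shGR-19 label, again apart by replicate label and not by line. Wnt7b differed by 0.24 in the table (SE 0.0528, adjusted p = 0.0421), and Wnt7a by 0.23 (SE 0.0716, adjusted p = 0.0873).

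Wnt7a, like Wnt9a, was separated by replicate label on the scanner arrays, but the other way. It read 2.70 and 1.62 under the EV-50 label and 2.56 and 1.80 under the shGR-19 label. Wnt11, a ligand of cell movement in the embryo, read -2.07 and -3.04 against -2.39 and -3.29 in the same order. For both genes the arrays labelled replicate 2 were the lower ones in each line.

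Table differences of the uncalled ligand probes ran from -0.88 for Wnt8b to 0.51 for the second Wnt9a probe. Both Wnt5b probes were negative, at -0.35 (adjusted p = 0.0453) and -0.54 (adjusted p = 0.0493). Wnt1, Wnt6, Wnt8b and Wnt9b had SEs of 0.18 to 1.04, wider than those of the called ligands. In Wnt9b, 1 column of EV-50 stood at 1.98 and the other at -0.76. The 10 replicate spots of Wnt1 on an array spread with an SD of 0.334 to 0.451 on the log2 scale, although each was well above background.

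Of the 12 receptor and co-receptor genes, 9 were tested with 13 probes, and 3 were called, Fzd4 and Fzd2 higher and Fzd7 lower in shGR-19. Fzd9 was well above background on no array, and Fzd10 and Lrp6 only on both arrays labelled replicate 2.

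Fzd4, which also serves as the receptor for Norrin in retinal vessels, had the smallest adjusted p of the members. In the table it held -0.44 and -0.45 in EV-50 and 0.44 and 0.47 in shGR-19, a difference of 0.91 (SE 0.0466, adjusted p = 0.00394, limma), or 1.87-fold. The scanner arrays gave -3.77 and -3.48 under the EV-50 label and -2.99 and -2.59 under the shGR-19 label. Both arrays labelled shGR-19 lay above both labelled EV-50.

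Fzd4 was the one called gene whose difference in both scanner pairs was near that in the table, 0.78 in that labelled replicate 1 and 0.89 in that labelled replicate 2. Over 4 arrays it was 0.83 (SE 0.262), with an unadjusted p of 0.0294 that did not survive adjustment (adjusted p = 1.0, limma). The Fzd4 probe was dim, however. In the pair labelled replicate 1, 2006 of the 24433 tested probes with a value on every array differed by more than 0.5. So did 5 of the 44 member probes. Among them were an uncalled Wnt5a probe (0.54, beside -0.03 in the table) and an uncalled Tcf7 probe (0.78, beside -0.54).

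Fzd2, a receptor that Wnt5a can bind, held -0.24 and -0.29 in EV-50 and 0.24 and 0.28 in shGR-19 in the table, a difference of 0.52 (SE 0.0516, adjusted p = 0.00926, limma). On the scanner arrays it read 1.95 and 2.43 under the EV-50 label and 1.92 and 2.98 under the shGR-19 label. The 2 arrays labelled replicate 1 were alike, at a difference of -0.02, and the pair labelled replicate 2 differed by 0.54. Fzd2 was the member nearest to the threshold among those called.

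Fzd7, a receptor known from basal mammary cells, was lower in shGR-19 by one probe. In the table this probe held 0.43 and 0.44 in EV-50 and -0.43 and -0.48 in shGR-19, a difference of -0.89 (SE 0.0491, adjusted p = 0.00418, limma). In the scanner files it read -4.85 and -5.46 under the EV-50 label and -5.00 and -5.67 under the shGR-19 label. It was dim, being well above background on 3 of the 4 arrays, and the lines overlapped. Its scanner pairs differed by -0.15 and -0.21.

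The second Fzd7 probe, the brighter of the pair, was not called in the table. It held 0.16 and 0.15 in EV-50 and -0.43 and -0.15 in shGR-19 (difference -0.45, SE 0.114, adjusted p = 0.0565). Its scanner signal was -1.75 and -2.03 under the EV-50 label and -2.04 and -2.45 under the shGR-19 label. Here the direction was the same in both sources, and the scanner pairs differed by -0.29 and -0.42.

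Lrp5, the co-receptor that was detected throughout, held -0.11 and -0.16 in EV-50 and 0.11 and 0.15 in shGR-19 (difference 0.26, SE 0.0503, adjusted p = 0.0314). The scanner arrays gave 0.75 and 0.92 under the EV-50 label and 0.74 and 1.42 under the shGR-19 label. Only the array labelled shGR-19 replicate 2 stood clearly apart, and the pair labelled replicate 2 differed by 0.50. Lrp6, its close relative, read -6.50 and -5.39 under the EV-50 label and -6.03 and -5.62 under the shGR-19 label, and was left out of the test because neither line had it above background on both arrays.

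The uncalled receptor probes ran from -0.63 to 0.38 in the table. Fzd3, a receptor of the planar polarity branch, was negative by all of its 3 probes (-0.63, -0.32 and -0.30), with 0.0151 as the adjusted p of the first. On the scanner arrays the last of these differed by -0.64 (SE 0.23), and by -0.85 and -0.42 in the pairs labelled replicates 1 and 2. Its unadjusted p there was 0.0462 by limma and did not survive adjustment. Fzd6, of the same branch, differed by -0.35 (SE 0.0474, adjusted p = 0.0161). Fzd5 was positive by both probes, at 0.38 and 0.22. Fzd1 and Fzd8 differed by -0.10 and -0.30, with adjusted p of 0.168 and 0.208.

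**Figure D3:**
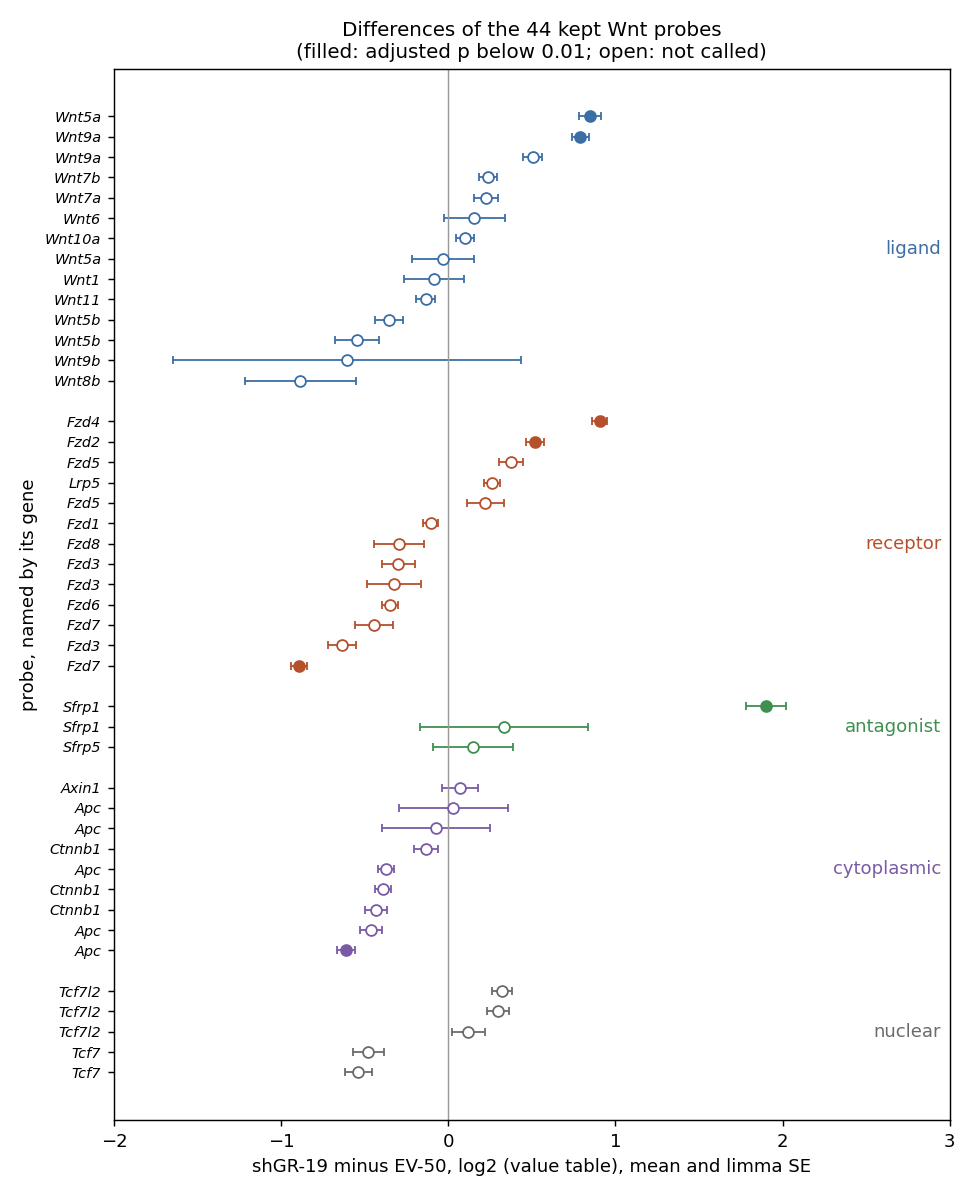
Difference between shGR-19 and EV-50 on the log2 scale of the value table for each of the 44 tested Wnt probes, with bars for the limma SE, grouped by role, filled where the adjusted p was below 0.01. The 7 filled points are spread over ligands, receptors, the antagonist Sfrp1 and the cytoplasmic gene Apc, with both signs among the receptors, and none is a nuclear factor.

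Of the 9 antagonist genes, only Sfrp1 and Sfrp5 were tested. Sfrp2, Sfrp4, Dkk1, Dkk2 and Dkk4 were well above background on no array, while Dkk3 was so on both arrays labelled replicate 2 and Wif1 on 1 array.

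Sfrp1, which binds Wnt ligands outside the cell and is often reduced in breast tumours, showed the widest difference of the members. In the table the called probe held -1.07 and -0.85 in EV-50 and 1.03 and 0.85 in shGR-19, a difference of 1.90 (SE 0.119, adjusted p = 0.00487, limma), or 3.73-fold. On the scanner arrays it read 0.10 and -1.55 under the EV-50 label and 0.17 and 0.42 under the shGR-19 label. The array labelled EV-50 replicate 2 was thus the low one, and the other arrays lay close together. The line difference was 1.02 over 4 arrays (SE 0.602, adjusted p = 1.0), 0.07 in the pair labelled replicate 1 and 1.98 in the pair labelled replicate 2.

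The second Sfrp1 probe was near background. It was well above background on both arrays labelled shGR-19 and on neither labelled EV-50, so it was tested only through the arrays labelled shGR-19. Its scanner values were -5.00 and -6.615 under the EV-50 label and -5.26 and -4.94 under the shGR-19 label, and their ranges overlapped. The bound on the fold between the means was 1.22, and the difference was not called (adjusted p = 1.0, limma). This bound takes, for each array labelled EV-50, the higher of the probe's own signal and the lowest signal well above background. In the table it held 0.30 and -0.96 in EV-50 and -0.20 and 0.20 in shGR-19, with a difference of 0.33 (SE 0.501, adjusted p = 0.645). Its columns overlapped, so the second probe did not give the call of the first. In the scanner pairs it differed by -0.26 for replicate 1 and 1.67 for replicate 2.

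Sfrp5, another member of the family, differed by 0.15 in the table (SE 0.24, adjusted p = 0.674) and by 0.05 on the scanner arrays.

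The cytoplasmic genes of the pathway were Ctnnb1, Apc, Axin1, Axin2 and Nkd1. The first 3 were tested with 9 probes, and 1 probe of Apc was called.

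Apc, the scaffold of the complex that degrades β-catenin, was lower in shGR-19 by 1 of 5 tested probes. In the table this probe held 0.35 and 0.29 in EV-50 and -0.30 and -0.29 in shGR-19, a difference of -0.61 (SE 0.0521, adjusted p = 0.00746, limma). In the scanner files it read -2.02 and -1.79 under the EV-50 label and -2.03 and -2.30 under the shGR-19 label, with a difference of -0.01 in the pair labelled replicate 1 and -0.51 in the pair labelled replicate 2. Only the arrays labelled replicate 2 were apart.

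The brightest Apc probe held 0.17 and 0.22 in EV-50 and -0.18 and -0.17 in shGR-19 in the table (difference -0.37, SE 0.0492, adjusted p = 0.0151). Another probe, which shares its last bases with the first bases of this one, differed by -0.46 (adjusted p = 0.0183). The remaining Apc probes differed by -0.07 and 0.03, with SEs of 0.325 each. Apc was therefore below 0 by 4 of 5 probes, of which 1 was called and 1 turned above 0 with columns centred. One of the wide probes read -2.23 on the scanner array labelled EV-50 replicate 1 and from -4.59 to -4.50 on the other arrays, so its scanner difference of -1.16 rests on that array. The 10 replicate spots that the array holds for Apc spread by an SD of 0.0573 to 0.0829 within an array.

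Ctnnb1, β-catenin itself, was below 0 by all of its 3 probes in the table and called by none. The brightest held 0.17 and 0.26 in EV-50 and -0.26 and -0.17 in shGR-19 (difference -0.43, SE 0.0662, adjusted p = 0.0199), or 1.35-fold. The others differed by -0.39 (SE 0.0466, adjusted p = 0.0128) and -0.13 (SE 0.0705, adjusted p = 0.227). On the scanner arrays the brightest probe read 4.09 and 4.03 under the EV-50 label and 4.02 and 3.80 under the shGR-19 label, lowest on the array labelled shGR-19 replicate 2. Its pairs differed by -0.06 and -0.23, beside an SD of 0.0488 to 0.0657 among the 10 replicate spots for Ctnnb1 on each array.

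Axin1, a partner of Apc, differed by 0.07 in the table (SE 0.108, adjusted p = 0.654). Axin2, a feedback inhibitor whose transcription is a widely used readout of canonical signalling, was well above background on none of the 4 arrays, where its probe read -6.93 and -8.16 under the EV-50 label and -8.13 and -8.39 under the shGR-19 label. Nkd1, another feedback inhibitor, was well above background on 1 array. Neither feedback gene could be compared between the lines, and a level under background is not shown to be absent.

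Of the 4 nuclear genes, Tcf7 and Tcf7l2 were tested, with 5 probes and no call. Tcf7, the factor also known as TCF1, was negative by both probes in the table, at -0.54 (SE 0.083, adjusted p = 0.0206) and -0.48 (SE 0.0929, adjusted p = 0.032). Over all 4 scanner arrays the same probes differed by 0.27 and 0.06, opposite in sign to the table. The first differed by 0.78 in the pair labelled replicate 1, where its EV-50 signal was not well above background. Its difference was -0.24 in the pair labelled replicate 2, the same sign as in the table. The second was above 0 in both pairs, at 0.06 and 0.05. Tcf7l2, the factor also known as TCF4, was positive by all of its 3 probes, at 0.32, 0.30 and 0.12, with 0.0298 as the smallest adjusted p. Tcf7l1 was well above background on no array and Lef1 on 1.

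Across the 44 tested probes, the absolute difference between the lines had a median of 0.341 in the table, 0.307 between the scanner arrays labelled replicate 2 and 0.0925 between those labelled replicate 1. Over all tested probes these medians were 0.245, 0.241 and 0.0795. For 20 of the member probes (45.5%) the gap between replicate labels on the scanner arrays was larger than the line difference in the table. The same held for 57.0% of all probes. Among the members the gap between replicate labels was widest for Wnt9a.

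**Figure D4:**
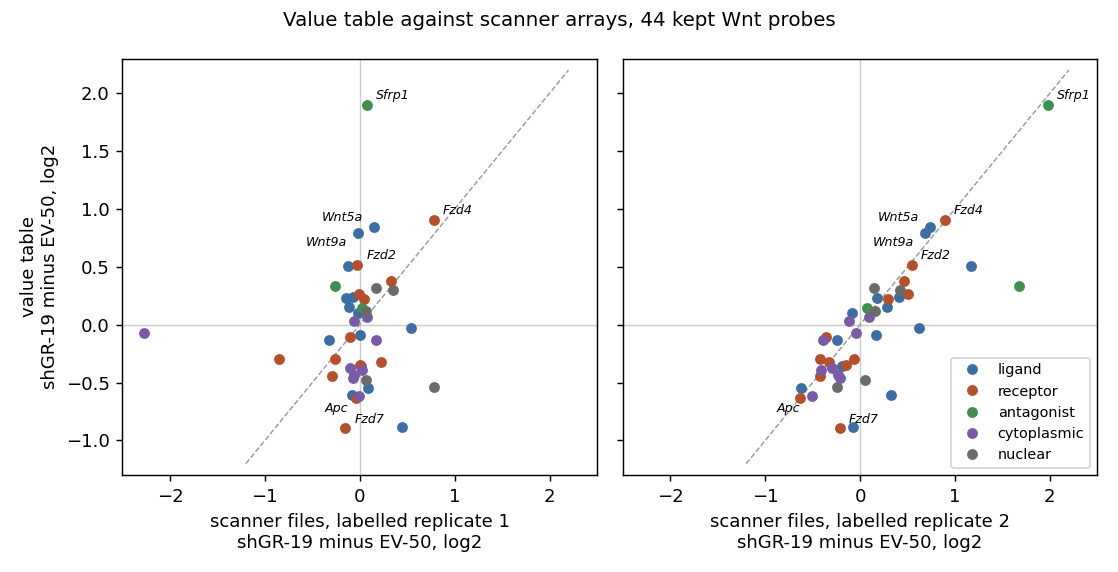
Difference between shGR-19 and EV-50 on the log2 scale for the 44 tested Wnt probes, in the value table (vertical axis) against the scanner arrays labelled replicate 1 (left) and replicate 2 (right), coloured by role, with the 7 called probes named and a dashed line where both are equal. On the left most points stand near 0 on the horizontal axis whatever their table value, Fzd4 being the called gene near the line. On the right Sfrp1, Fzd4, Wnt5a, Wnt9a, Fzd2 and Apc lie near the line, and Fzd7 lies off it.

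The wider pathway was described with 64 further genes for ligand secretion, alternative receptors, cytoplasmic relay, nuclear cofactors and planar polarity, of which 47 were tested by their brightest probe. By the table, 5 were called higher and 5 lower (21.3%), with a median difference of 0.192, and over all 16758 genes tested the same rule called 12.6%, with a median of 0.0178. Those beyond 2-fold were Apcdd1 and Tle4, higher, and Nkd2, Prickle1, Ryk and Tle2, lower.

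Among regulators near the membrane, Nkd2, a relative of the feedback inhibitor Nkd1, had a table difference of -2.42 (SE 0.0775, adjusted p = 0.00253, limma) and differed by -2.40 between the scanner arrays labelled replicate 2. Apcdd1, a membrane protein that binds Wnt and Lrp5 and dampens signalling, differed by 2.24 in the table (SE 0.0514, adjusted p = 0.002) and by 2.27 in that scanner pair. Both genes differed by under 0.1 in size between the arrays labelled replicate 1, at 0.08 and -0.01. Ryk, an atypical receptor for Wnt5a, differed by -1.15 in the table and by -0.95 in the pair labelled replicate 2, and Prickle1, of the planar polarity branch, by -1.60 and -1.53. In the pair labelled replicate 1, Ryk and Prickle1 differed by -0.02 and -0.18.

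Of the Groucho corepressors, which bind Tcf and Lef proteins, Tle4 differed by 1.87 in the table and Tle2 by -1.63, in opposite directions. Between the scanner arrays labelled replicate 2 they differed by 1.72 and -1.29, and between those labelled replicate 1 by 0.06 and 0.03.

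A list of 33 genes that have been described as targets of β-catenin in some tissue was read in the same way, and most of them have other regulators too. Of 28 tested, 2 were called higher and 6 lower in shGR-19 (28.6%), with a median difference of 0.166. Over all 16758 genes 1021 were called higher and 1091 lower, which is 12.6%, with a median of 0.0178. Those beyond 2-fold were Msx1, a homeobox factor, at 1.09, and Id2, an inhibitor of helix-loop-helix factors, Wisp2, a secreted matrix protein, and Ccnd2, a cyclin, at -1.85, -1.07 and -1.003. In the scanner pair labelled replicate 2 these genes differed by 0.89, -1.90, -1.22 and -0.94. In the pair labelled replicate 1 they differed by 0.006, 0.06, -0.05 and 0.07. The lists were assembled with earlier results of these arrays known, and the lists and the members share samples, so the counts describe these genes and no more.

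The labelled cell type was checked against marker lists. On every array 10 or 11 of 11 mammary epithelial markers were well above background, with none called between the lines in the table, and 7 or 8 of 9 myoepithelial markers, with 2 called lower in shGR-19. The summed log2 signal of the myoepithelial markers was 6.08 and 7.38 under the EV-50 label and 6.12 and 6.35 under the shGR-19 label. Of the immune markers 6 of 9 were detected on each array, 1 of them called higher in shGR-19, with a summed log2 signal of -0.53 to -0.29, and Ptprc, Itgam and Emr1 were detected on none. Endothelial markers were detected for 0 to 3 of 6 genes, with a summed signal of -3.32 to -3.11 and Cdh5, Emcn and Pecam1 never, and adipocyte markers for 1 or 2 of 5, with -2.30 to -1.60 and Adipoq, Cfd and Lep never, none of either list being called. Fibroblast markers were detected for 3 to 6 of 8 genes, never Dcn. Their summed signal on the log2 scale was 1.94 and 5.11 under the EV-50 label and 1.69 and 5.42 under the shGR-19 label, so it moved with the replicate label. Wnt9a, the called Wnt5a probe, Wnt10a and Fzd2 moved the same way in both lines, and Wnt7a, Wnt11 and Fzd1 the opposite way. These are examples, and other members moved with the label as well. By the table, 2 of the 3 tested fibroblast markers were called higher in shGR-19 and 1 lower. Their part in the Wnt results was not tested, and in bulk RNA fewer cells of a type and less RNA per cell cannot be told apart.

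The promoters of the members were read for 3 short motifs on either strand, AGAACA as a half-site of GR, CTTTGA as a core of Tcf and Lef sites, and CCGGAA as a core of ETS factors, the family of GABP, which the study considered beside GR. Promoter sequences of 300 bases, 250 before and 50 after the gene start, were those of RefSeq on GRCm38.p6, and 42 promoters of 33 member genes were matched. AGAACA was found in 8 of these 42 and in 6233 of all 32851 promoters, the same share. CTTTGA was found in 5 (11.9%, beside 16.0%) and CCGGAA in 3 (7.14%, beside 14.9%). Of the called genes with a promoter, Wnt9a, Fzd4 and Fzd7, only that of Fzd4 held a match. It is shown because Fzd4 was the called gene with a like difference in the table and in both scanner pairs. The match is in capitals, at bases 266 to 271 of the 300.
Fzd4, GRCm38.p6, chr7:89404116-89404415, plus strand: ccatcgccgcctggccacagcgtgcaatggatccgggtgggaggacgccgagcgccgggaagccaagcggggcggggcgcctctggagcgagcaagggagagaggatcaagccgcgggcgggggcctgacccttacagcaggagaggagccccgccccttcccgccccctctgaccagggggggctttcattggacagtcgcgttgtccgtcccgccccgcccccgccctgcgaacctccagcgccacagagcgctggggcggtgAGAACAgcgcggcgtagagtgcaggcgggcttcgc
A match of these letters is a description of the sequence and does not show that GR is bound there.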

How the data were processed

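The scanner output holds the intensity of each spot, which the authors obtained with Agilent Feature Extraction 10.5.1.1, background-subtracted and not scaled between arrays. The deposited value table holds log2 values that the authors made in GeneSpring, with each probe centred on its median over the 4 columns, so that levels are lost and only differences remain. The 4 arrays shared 1 slide and 1 scan.

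The processed signal of the scanner files was put on the log2 scale and the 75th percentile of the array was subtracted, control spots and spots with an outlier flag were left out, and spots of a probe were averaged. No spot of a member was so flagged and none on the arrays was saturated. Of 43379 spots, 23290 to 27358 were well above background, and precision is limited by the number of arrays. A probe was kept where each array of EV-50, or each of shGR-19, had it well above background. Both sources were fitted with limma 3.58.1 in R 4.3.3 over all kept probes, with Benjamini-Hochberg adjustment. Counts used an adjusted p below 0.01, with a limit of 2-fold where stated. An exact permutation test of so few arrays cannot reach the threshold and was not used. The fits were tested on simulated data.

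The members and the gene lists were chosen with earlier results of these data known. All member genes with a kept probe could be named, with each array's value for genes called at an adjusted p below 0.01 and for Ctnnb1, Apc, Axin2, Lrp5 and Lrp6, the brightest probe first and other probes where they differed, and up to 10 genes of the lists by size of difference among those beyond 2-fold. The replicate block, each array left out, other normalisations, filters and thresholds were tried as alternatives, with statmod 1.5.0 for the robust prior.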

Additional observations from a re-analysis of the deposited data

How the results depend on the processing

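The 7 members called in the value table kept their direction in every alternative on the table that held their probe. The called Fzd7 probe had no value with probes detected on all 4 arrays. Neither it nor the called Apc probe had one with the brightest probe of a gene, where 5 members were called higher and 0 lower. Over all 16758 genes that fit called 1119 higher and 1164 lower. No call of any probe survived the loss of any 1 column, where member differences ranged, for example, from 1.79 to 2.01 for Sfrp1 and from 0.89 to 0.92 for Fzd4, with adjusted p of 0.037 to 0.04 and 0.0391 to 0.0419, nor the replicate number as a block. With a column left out, the lone column of a line is assumed to vary like the other line. The block gave 0 calls in the table, among the members and over all probes, with a smallest adjusted p of 0.0294, and 0 in the scanner files, with a smallest adjusted p of 0.298. Over all probes, deviations of same-numbered samples correlated at 0.574 in the scanner files and 0.0559 in the table, and over the members at 0.648 and -0.09. Scanner arrays of the same number thus shared deviations, and table columns did not. With only 2 pairs, the main fits did not pair the samples by number, and the block was kept as an alternative. Over all probes at more than 2-fold, the table gave 1042 calls, 43 with all probes kept, and 0 with the block and with each column left out. Of the members at more than 2-fold it gave 1, and 2 with columns centred, 0 with all probes kept, 0 with the block and 0 with each column left out. Without a limit on the fold, the 7 members called became 0 with all probes kept, 13 with probes detected on all 4 arrays and 16 with an intensity trend and robust prior. They became 0 with the block, 23 at an adjusted p below 0.05 and 19 at an unadjusted p below 0.01. Where the members rose, calls over all probes rose as well, from 1349 higher and 1476 lower of 24440. They were 2370 and 2504 of 21178 with probes detected on all 4 arrays, and 4058 and 3976 with the trend and robust prior. At an adjusted p below 0.05 they were 4482 and 4437, and at an unadjusted p below 0.01 they were 3659 and 3653. In the scanner files 0 probes were called in all but 2 alternatives, the value table in their place (1042 probes, 1 a member) and an unadjusted p below 0.01 (35 probes). On leaving out 1 scanner array, differences changed sign for 6 genes, with ranges of -0.52 to 0.15 for Fzd7, -1.12 to 1.79 for Wnt9a, -0.27 to 0.79 for Fzd2, -0.20 to 1.08 for Wnt5a, -0.40 to 0.007 for the brightest Apc probe and -0.09 to 0.59 for Lrp5. With only the arrays labelled replicate 2, added after the data were seen, the called Apc probe moved from -0.26 to -0.51. Sfrp1 moved from 1.025 to 1.975, Wnt9a from 0.335 to 0.686, Fzd2 from 0.259 to 0.542, Wnt5a from 0.444 to 0.737 and Lrp5 from 0.248 to 0.501. Smaller changes were those of Fzd4 (0.834 to 0.89), Fzd7 (-0.182 to -0.211), the brightest Apc probe (-0.197 to -0.291) and Ctnnb1 (-0.147 to -0.231). The causes were not tested.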
